A study of Mus musculus with 11 samples.

Results

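The 50 cell cycle and DNA replication genes described here act from the end of G1 to the end of mitosis, and were taken as a fixed list of mouse gene symbols matched to the Ensembl identifiers of the expression table. All 50 were found among the 52550 genes of the table, and 49 of them passed the filter on low values, which left 14419 genes to be tested. The exception was Cdkn2a. The expression of this set was compared between keratinocytes (KCs), the epithelial cells that build the epidermis, and dendritic epidermal T cells (DETCs), the γδ T cells that reside among them, and between mice with and without Langerhans cells (LCs), the antigen-presenting cells of the same layer. Mice without LCs were huLangerin-DTA animals (here LC-/-, labelled DTA), in which the human langerin promoter drives diphtheria toxin subunit A so that LCs are missing from birth. The controls were wild type (WT) littermates, and all mice were females of 8 weeks. KCs were live MHC-II-, CD45-, langerin- and c-kit- single cells sorted from trypsin-treated flank skin, and DETCs were MHC-II-, CD45+, langerin- and c-kit-. Poly-A RNA gave 3 WT and 3 LC-/- libraries of KCs and 3 WT and 2 LC-/- libraries of DETCs. They are called W1 to W3 (WT) and L1 to L3 (LC-/-) after the numbers in the sample titles, and no DETC library of L1 was analysed here.

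A cell that divides first licenses its replication origins by loading the MCM helicase, then fires them and copies its DNA with nucleotides made by ribonucleotide reductase and thymidylate synthase. Genes for these steps are switched on by E2F factors when D-type and E-type cyclins inactivate the retinoblastoma protein, while genes for mitosis follow later under the DREAM and MuvB complexes with B-Myb and FoxM1. In the epidermis, division is restricted to basal and follicular KCs, and resting DETCs renew slowly in place. In bulk libraries of this kind, a higher share of dividing cells and more transcript per dividing cell cannot be told apart.

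The libraries held 13491075 to 19750440 reads on genes, and all values below are normalized counts, that is reads divided by a size factor per library. Cd207 (langerin) stood at 6.15, 26.9 and 15.6 in WT KCs and 21.8, 16.5 and 46.7 in WT DETCs, against 0 in all 3 LC-/- KC libraries and 0 and 4.42 in the LC-/- DETC libraries L2 and L3. The summed level of 16 DETC markers was 348 to 669 in KCs and 256373 to 278731 in DETCs, and that of 24 keratinocyte markers was 658042 to 725917 in KCs and 110955 to 190502 in DETCs. The DETC libraries thus held keratinocyte transcripts. Their share, the median over the 24 markers of the DETC level divided by the mean KC level of the genotype, was 14.8%, 15.8% and 17.7% in W1, W2 and W3, 24.97% in L2 and 15.5% in L3. Library L2 stood apart with the highest share. Of all tested genes, limma called 514 in LC-/- DETCs. That count was 370 without W1, 73 without W2 and 42 without W3, so it depended on single libraries. Counts without L2 or L3 are not set beside these, since 1 LC-/- DETC library is then left. The members' results in these cells are also given without L2, which leaves L3 as the single LC-/- DETC library. The p-values rest on the spread of libraries around the means of their groups of 2 or 3, moderated by that of all genes. This spread was pooled over the groups of a population for genotypes, and over all 11 libraries for populations and the interaction. The labels do not say whether each library came from 1 animal. The paper describes each point of its principal component plot of these data as a separate animal.

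Promoter sequences show what the members share that the choice of the list did not use. RefSeq windows on GRCm38.p6, reaching from 250 bases before to 50 bases after a transcript start, were matched to 40 of the 50 members and to 27025 genes in all. An E2F-type motif (spelled TTCCCGC in one form, TTGGCGC in another and TTCGCGC in the last, on either strand) was found for 9.20% of all genes, for 8 of 13 replication members and for 3 of 19 mitosis members. A CHR-type motif (spelled TTTGAA in one form and TTCGAA in another, on either strand) was found for 21.7% of all genes, for 3 of 13 replication members and for 15 of 19 mitosis members. CCAAT, on either strand, was found for 41.1% of all genes, 10 of the 13 replication members and 17 of the 19 mitosis members. Both CHR and CCAAT were found for 9.65% of all genes and for 15 of the 19 mitosis members. Among the 10291 tested genes with a window the shares were 16.6% for E2F, 16.6% for CHR and 42.5% for CCAAT. A motif here is a match of letters, not a site that was shown to be bound.

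The stretches below are the 140 bases that lie before the outermost annotated start of 7 members on which the results turn, printed 5′ to 3′ on the strand of the gene. Capitals mark any match to the E2F, CHR or CCAAT letters above. Rrm1, Rrm2 and Mcm5 serve replication, and Cenpa, Ccnb1, Cdc20 and Cenpf serve mitosis.
Rrm1: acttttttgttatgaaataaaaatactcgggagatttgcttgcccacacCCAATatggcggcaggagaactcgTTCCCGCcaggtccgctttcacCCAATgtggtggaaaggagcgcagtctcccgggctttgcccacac
Rrm2: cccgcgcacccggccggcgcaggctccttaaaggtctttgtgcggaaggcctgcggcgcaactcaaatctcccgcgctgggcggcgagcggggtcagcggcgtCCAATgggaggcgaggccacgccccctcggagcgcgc
Mcm5: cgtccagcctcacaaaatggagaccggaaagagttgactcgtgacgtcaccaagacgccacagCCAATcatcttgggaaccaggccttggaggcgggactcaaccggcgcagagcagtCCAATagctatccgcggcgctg
Cenpa: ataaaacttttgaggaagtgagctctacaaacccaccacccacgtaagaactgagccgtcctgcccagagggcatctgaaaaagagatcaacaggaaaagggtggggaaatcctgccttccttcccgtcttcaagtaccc
Ccnb1: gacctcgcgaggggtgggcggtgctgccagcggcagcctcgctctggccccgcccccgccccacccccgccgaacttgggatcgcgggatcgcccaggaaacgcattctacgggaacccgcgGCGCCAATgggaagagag
Cdc20: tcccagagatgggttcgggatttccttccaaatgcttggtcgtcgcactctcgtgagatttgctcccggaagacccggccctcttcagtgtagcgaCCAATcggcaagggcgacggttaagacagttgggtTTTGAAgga
Cenpf: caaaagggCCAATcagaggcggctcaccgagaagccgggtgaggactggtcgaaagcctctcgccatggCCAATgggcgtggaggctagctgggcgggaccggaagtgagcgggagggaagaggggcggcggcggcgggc
On GRCm38 these lie at chr7:102441555-102441694, plus strand (Rrm1), chr12:24708101-24708240, plus strand (Rrm2), chr8:75109369-75109508, plus strand (Mcm5), chr5:30666637-30666776, plus strand (Cenpa), chr13:100786571-100786710, minus strand (Ccnb1), chr4:118437353-118437492, minus strand (Cdc20) and chr1:189688087-189688226, minus strand (Cenpf). The Rrm1 stretch holds an E2F motif between a pair of CCAAT boxes, whereas that of its partner Rrm2 holds a CCAAT box and no E2F match in these letters. The Cdc20 stretch holds a CCAAT box followed by TTTGAA next to the start. In Ccnb1 the capital run GCGCCAAT is a CCAAT box that overlaps TTGGCGC read on the opposite strand. The Cenpa stretch shows no match, since its CHR and CCAAT matches lie between the outermost annotated start and the RefSeq start, which is not printed.

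WT DETCs and WT KCs differed in most members, with replication and G1 genes higher in DETCs and mitosis genes lower. Of the 49 members, 18 were higher in DETCs at an adjusted p under 0.05, where 40.5% of all tested genes were, and 16 were lower, where 34.8% of all tested genes were, so the share called was close to that of all genes. The direction followed the role. Among the 15 replication members 10 were higher and 2 lower with a median log2 difference of 0.87, and among the 23 mitosis members 2 were higher and 14 lower with a median of -0.52. The median was 0.07 over all tested genes and -0.03 over the 49 members. All differences are of log2(normalized count + 1) in a limma fit over all 11 libraries.

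**Figure D1:**
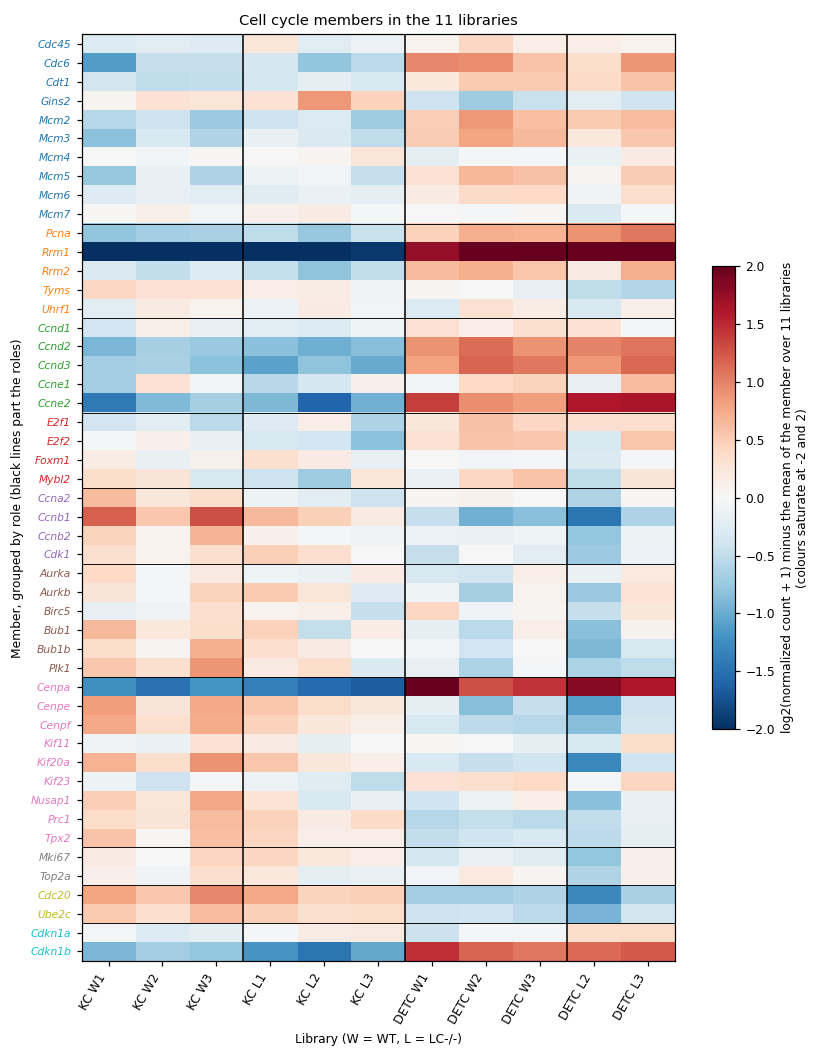
Level of each of the 49 tested members (rows, grouped by role, role shown by label colour) in each of the 11 libraries (columns), as log2(normalized count + 1) minus the mean of the member over all libraries. Rrm1, Cenpa, Cdkn1b and Ccne2 are high in every DETC library, Ccnb1 and Cdc20 are high in KCs, and the DETC library L2 is pale or blue over most mitosis rows.

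Of the 10 members that license and start origins, 7 were higher in WT DETCs, 1 was lower and 2 did not pass the test. Cdc6, which recruits the MCM ring to origins, stood at 14.3, 23.2 and 23.3 in WT KCs, 25.3, 18.3 and 22.1 in LC-/- KCs, 64.4, 62.7 and 48.6 in WT DETCs and 41.7 and 60.8 in LC-/- DETCs. The lowest DETC value lay above the highest KC value, at a low level throughout (log2 1.51 ± 0.26 SE, adjusted p = 0.000173). Mcm5, a subunit of the MCM helicase, stood at 126, 194 and 139 in WT KCs, 199, 207 and 156 in LC-/- KCs, 263, 338 and 323 in WT DETCs and 223 and 305 in LC-/- DETCs. Its WT groups did not overlap, with a mean of 153 ± 36.0 (SD, n = 3) in KCs and 308 ± 39.8 (SD, n = 3) in DETCs, a 2.03-fold difference (log2 1.02 ± 0.19 SE, adjusted p = 0.000274). Other MCM subunits split. Mcm2 (log2 1.22), Mcm3 (1.22) and Mcm6 (0.54) were higher in WT DETCs, whereas Mcm4 (-0.08, adjusted p = 0.475) and Mcm7 (-0.03, adjusted p = 0.8) did not pass. Cdt1, the second MCM loader, was higher by 0.87 and Cdc45, which joins the active helicase, by 0.45 on the log2 scale. Gins2, a subunit of the GINS complex that also joins the helicase, went the other way (log2 -0.71 ± 0.19 SE, adjusted p = 0.00491). It overlaps Gse1 on the opposite strand, Cdc45 overlaps Ufd1 and Mcm7 overlaps Ap4m1, and whether the counting used strand is not given in the sources used here.

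Rrm1 had the largest difference of all members. It encodes the large subunit of ribonucleotide reductase, the enzyme that makes deoxyribonucleotides, and lies at chr7:102441695-102469771 on the plus strand. In normalized counts Rrm1 read 832, 837 and 889 in WT KCs, 864, 809 and 951 in LC-/- KCs, 12173, 18306 and 15869 in WT DETCs and 29488 and 31994 in LC-/- DETCs. Every DETC library was more than 10 times above every KC library, and the LC-/- DETC libraries were above the WT ones. The WT difference was 17.9-fold (log2 4.16 ± 0.12 SE, adjusted p = 1.36e-11), which ranked 1102 of 14419 genes from the top. Rrm2, the small subunit of that enzyme, stood at 231, 200.3 and 234 in WT KCs, 202, 161 and 201 in LC-/- KCs, 436, 470.4 and 416 in WT DETCs and 320.4 and 469.9 in LC-/- DETCs. Its DETC values were above its KC values without overlap, by a factor of 1.99 in WT (log2 0.99 ± 0.15 SE, adjusted p = 4.41e-05). The ratio of Rrm1 to Rrm2 normalized counts, not corrected for length, was 3.61 to 5.03 in the KC libraries, 27.9 to 38.9 in WT DETCs and 92.0 and 68.1 in L2 and L3. The pair of subunits therefore did not move in step between the populations.

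Genes around Rrm1 were measured with the same reads. Stim1, an endoplasmic reticulum calcium sensor on the same strand just before Rrm1, stood at 4326 to 4486 in WT KCs and 3327 to 4073 in WT DETCs (log2 -0.22, adjusted p = 0.0227). Trim21, an antibody receptor gene behind Rrm1, was higher in WT DETCs by 1.33 on the log2 scale (adjusted p = 0.000151). Gm45399, a provisional transcript model that lies inside Rrm1 on the same strand, stood at 0 to 3.46 in WT KCs and 40.4 to 86.2 in WT DETCs. No other annotated transcript matched Rrm1 over at least 150 bases at 97% identity or more.

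The other genes for the fork and its nucleotides were Pcna, Tyms and Uhrf1. Pcna encodes the sliding clamp that holds polymerases on DNA and stood at 1738, 1878 and 1919 in WT KCs, 2109.8, 1776 and 2222 in LC-/- KCs, 4139, 5009.9 and 4856 in WT DETCs and 5644 and 6288 in LC-/- DETCs. The groups of the populations did not overlap, and the WT difference was 2.52-fold (log2 1.34 ± 0.10 SE, adjusted p = 7.45e-08). Tyms, thymidylate synthase, was lower in WT DETCs (log2 -0.37, adjusted p = 0.0245), and Uhrf1, which maintains DNA methylation behind the fork, did not pass (log2 0.05, adjusted p = 0.8). Reads of a Pcna pseudogene, Pcna-ps2, were few beside those of Pcna, at 8 to 38 per library.

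**Figure D2:**
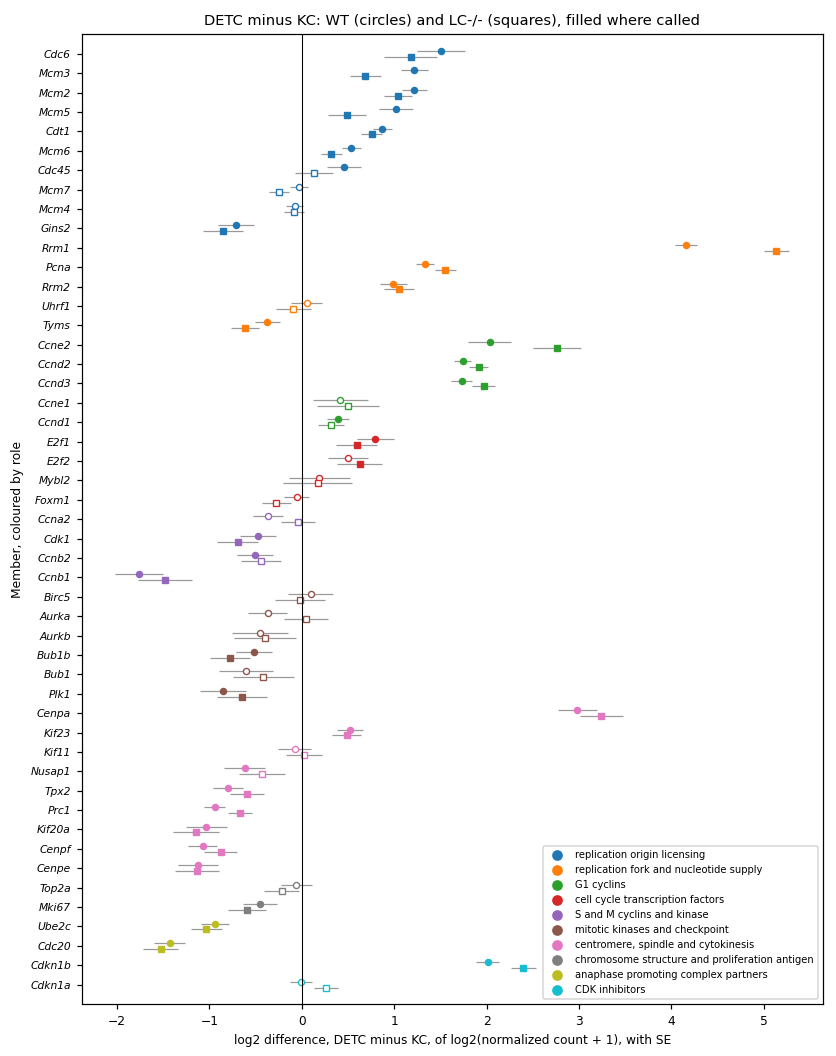
Difference between DETCs and KCs for each of the 49 tested members, as the log2 difference of log2(normalized count + 1) with its SE on the x axis and members coloured by role on the y axis. Circles are WT and squares are LC-/-, filled where the adjusted p was under 0.05. Rrm1 (4.16 in WT and 5.14 in LC-/-) and Cenpa (2.98 and 3.24) lie farthest to the right and Ccnb1 (-1.76 and -1.48) and Cdc20 (-1.43 and -1.53) farthest to the left.

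Of the 5 G1 cyclins, which pair with kinases to start the cycle, 4 were higher in WT DETCs and Ccne1 did not pass (log2 0.42, adjusted p = 0.222). Ccnd2 (cyclin D2) stood at 5033, 5972 and 5647 in WT KCs, 5322, 4811 and 5243 in LC-/- KCs, 17637, 20422 and 17671 in WT DETCs and 18853 and 19800.3 in LC-/- DETCs. Ccnd3 (cyclin D3) stood at 679, 697 and 617 in WT KCs, 520.0, 628 and 541 in LC-/- KCs, 1915, 2448 and 2282 in WT DETCs and 2004 and 2418 in LC-/- DETCs. For both, each DETC library was above each KC library, by 3.35-fold in WT for Ccnd2 (log2 1.74 ± 0.09 SE, adjusted p = 2.91e-09) and 3.32-fold for Ccnd3 (log2 1.73 ± 0.11 SE, adjusted p = 1.61e-08). Ccnd1 (cyclin D1) stood at 1105, 1555 and 1287 in WT KCs, 1234, 1186 and 1351 in LC-/- KCs, 1766, 1577 and 1800.0 in WT DETCs and 1747 and 1396 in LC-/- DETCs. Its WT groups were separated by little, between 1555 in KC W2 and 1577 in DETC W2 (log2 0.39 ± 0.12 SE, adjusted p = 0.011). This call was lost in 3 of 23 alternative settings, without KC W1 (0.27, adjusted p = 0.0592), with quantile normalization (0.13, adjusted p = 0.349) and after subtraction of the keratinocyte share (0.20, adjusted p = 0.167). Ccne2, a cyclin E, stood at 50.2, 73.3 and 85.6 in WT KCs, 72.7, 44.8 and 69.4 in LC-/- KCs, 356, 259 and 243 in WT DETCs and 416 and 422 in LC-/- DETCs. It was the third in size among the members higher in WT DETCs, at 4.1-fold (log2 2.03 ± 0.23 SE, adjusted p = 4.19e-06). Ints8, which overlaps Ccne2 on the opposite strand, was itself higher in WT DETCs by 0.89 on the log2 scale (adjusted p = 8.12e-06). Ccnd3 overlaps Bysl in the same way, and Ccnd1 overlaps LTO1.

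Of the transcription factors of the cycle, E2f1 was higher in WT DETCs (log2 0.80 ± 0.20 SE, adjusted p = 0.00273), and E2f2 (log2 0.50, adjusted p = 0.0525), Foxm1 (-0.06, adjusted p = 0.718) and Mybl2, which encodes B-Myb (0.19, adjusted p = 0.617), did not pass. E2f1 means were 64.9 ± 7.22 (SD, n = 3) in KCs and 114 ± 14.3 (SD, n = 3) in DETCs.

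The genes of late S phase and mitosis were mostly lower in DETCs. Ccnb1, cyclin B1 of the kinase that drives entry into mitosis, stood at 201, 128 and 215 in WT KCs, 138, 122 and 98.8 in LC-/- KCs, 63.3, 44.6 and 48.6 in WT DETCs and 31.1 and 56.4 in LC-/- DETCs. No DETC library reached the lowest KC library, and the WT difference was 3.38-fold, the largest among the members lower in DETCs (log2 -1.76 ± 0.26 SE, adjusted p = 4.65e-05). Cdk1, the kinase itself, stood at 169, 141 and 171 in WT KCs, 188, 170.0 and 133 in LC-/- KCs, 97.1, 136 and 115 in WT DETCs and 80.6 and 124 in LC-/- DETCs. The WT groups were apart by a small margin (log2 -0.47 ± 0.20 SE, adjusted p = 0.0441), and this call was lost in 7 of 23 alternative settings, with adjusted p from 0.00347 to 0.160. Ccnb2 was lower by -0.51 on the log2 scale (adjusted p = 0.0311), and Ccna2, cyclin A2 of S phase and G2, did not pass (-0.37, adjusted p = 0.0627).

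Cdc20, which activates the anaphase promoting complex, stood at 323, 269.9 and 362 in WT KCs, 314, 254 and 258 in LC-/- KCs, 115, 115 and 121 in WT DETCs and 75.7 and 118 in LC-/- DETCs. All DETC libraries lay below all KC libraries (2.7-fold in WT, log2 -1.43 ± 0.17 SE, adjusted p = 5.92e-06). Its partner Ube2c, a ubiquitin-conjugating enzyme, was lower by -0.94 on the log2 scale (adjusted p = 0.000102). Of the 6 kinases and checkpoint genes, Plk1 (-0.85, adjusted p = 0.00685) and Bub1b (-0.52, adjusted p = 0.0274) were lower, and Aurka, Aurkb, Bub1 and Birc5 did not pass, with log2 differences from -0.60 to 0.10.

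Centromere, spindle and cytokinesis genes were split, with 2 of 9 higher and 6 lower in WT DETCs. Cenpa encodes the histone H3 variant that marks centromeres, and its values were 214, 179 and 219.6 in WT KCs, 195, 172 and 159.7 in LC-/- KCs, 2490.2, 1229 and 1375 in WT DETCs and 1789 and 1549 in LC-/- DETCs. Every DETC library was above every KC library, with W1 the highest (7.9-fold in WT, log2 2.98 ± 0.21 SE, adjusted p = 3.85e-08). Its neighbour Slc35f6 was lower in WT DETCs (log2 -0.57, adjusted p = 0.000738), as was Mapre3 (-0.40, adjusted p = 0.00442). Cenpe, the motor protein that moves chromosomes to the spindle equator, went in the opposite direction at 397, 265 and 377 in WT KCs, 327, 285 and 259.5 in LC-/- KCs, 193, 123 and 161 in WT DETCs and 103 and 167 in LC-/- DETCs. Here no DETC value reached the lowest KC value (log2 -1.12 ± 0.22 SE, adjusted p = 0.000437). Cenpf, a kinetochore protein, stood at 448, 330.2 and 444 in WT KCs, 365, 310.5 and 288 in LC-/- KCs, 213, 185 and 178 in WT DETCs and 147 and 206 in LC-/- DETCs, again without overlap (log2 -1.07 ± 0.16 SE, adjusted p = 4.93e-05). Kif20a, a kinesin of the dividing cell's midzone, stood at 187, 147 and 216 in WT KCs, 167, 135 and 127 in LC-/- KCs, 92.8, 83.3 and 87.5 in WT DETCs and 46.6 and 87.3 in LC-/- DETCs. It was lower in DETCs as well (log2 -1.04 ± 0.22 SE, adjusted p = 0.000944), with an overlap of its gene with Cdc23 on the opposite strand. Tpx2, Prc1 and Nusap1, which organise spindle microtubules, were lower by -0.80, -0.94 and -0.62 on the log2 scale. Kif11, the motor that separates the poles, did not pass (-0.08, adjusted p = 0.699), and Kif23, a motor of cytokinesis, was higher in WT DETCs (log2 0.52 ± 0.14 SE, adjusted p = 0.00438).

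The proliferation antigen and the topoisomerase differed little. Mki67, the gene of the Ki-67 antigen, stood at 2125, 1899.6 and 2534 in WT KCs, 2541, 2176 and 2051 in LC-/- KCs, 1467, 1723 and 1588 in WT DETCs and 1099 and 2017 in LC-/- DETCs. The WT DETC libraries were below the WT KC libraries (log2 -0.45 ± 0.18 SE, adjusted p = 0.04), and this call was lost in 7 of 23 alternative settings, with adjusted p from 0.00236 to 0.151. Top2a, which untangles chromosomes, stood at 1404, 1245 and 1642 in WT KCs, 1514, 1156 and 1195 in LC-/- KCs, 1253, 1499 and 1349 in WT DETCs and 862 and 1403 in LC-/- DETCs. Its populations overlapped (log2 -0.06 ± 0.17 SE, adjusted p = 0.755), with a 95% interval from -0.42 to 0.30.

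**Figure D3:**
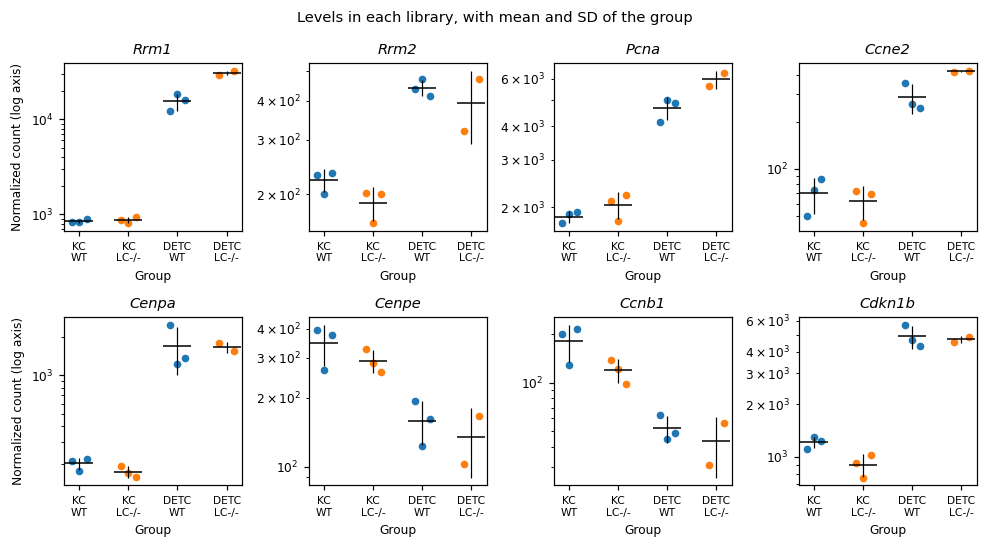
Normalized counts (log axis) of 8 members in each library, grouped by population and genotype, with WT in blue and LC-/- in orange, and the mean and SD of each group in black. Rrm1 lies between 809 and 951 in KCs and between 12173 and 31994 in DETCs, and Cenpa and Cenpe move in opposite directions between the populations.

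Of the 3 inhibitors of cyclin-dependent kinases, Cdkn1b (p27), which holds cells out of the cycle, stood at 1108, 1288 and 1222 in WT KCs, 918, 758 and 1020.3 in LC-/- KCs, 5698, 4667 and 4298 in WT DETCs and 4551 and 4876 in LC-/- DETCs. All DETC libraries were above all KC libraries (4.03-fold in WT, log2 2.01 ± 0.12 SE, adjusted p = 9.22e-09). Cdkn1a (p21), a target of p53, stood at 11965, 10215 and 10867 in WT KCs, 11993, 13580.1 and 13878 in LC-/- KCs, 9122, 12021 and 11927 in WT DETCs and 15599.8 and 15777 in LC-/- DETCs. It did not separate the WT populations (log2 -0.01 ± 0.12 SE, adjusted p = 0.957). Of 23 alternative settings, quantile normalization alone called it, as lower in WT DETCs (-0.37, adjusted p = 0.00216). Per kilobase of exon it had the highest level of all members in each of the 4 groups, 3100.4 normalized counts per kilobase in WT KCs and 3103 in WT DETCs, ahead of Pcna in WT KCs (769) and of Ccnd2 in WT DETCs (1974). In LC-/- DETCs it stood at 4415.5 per kilobase and Rrm1 came next at 2792. The length used was the union of all annotated exons of a gene, 3553 bases for Cdkn1a and 11012 for Rrm1. Lengths of single transcripts could reorder the members. Cdkn2a, the locus of p16 and p19Arf, was at 0 in all 6 KC libraries and at 5.46, 12.4 and 8.75 in WT and 8.74 and 12.2 in LC-/- DETC libraries. It did not pass the filter. Against the floor of 3 reads in a library, it was at least 2.88-fold higher in WT DETCs than in WT KCs.

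The comparison was repeated in the LC-/- libraries, whose values do not enter the WT difference itself. Both comparisons used the spread estimated over all 11 libraries, so their calls are not independent. There 17 of 49 members were higher in DETCs, where 40.1% of all tested genes were, and 14 were lower, where 33.7% were. Of the members, 30 were called in both genotypes and in the same direction, 16 higher and 14 lower, and none in opposite directions. In WT, 40.5% of all tested genes were higher and 34.8% lower. The share of all tested genes called in both genotypes was not counted, so the 30 are not read as particular to the members. Cdc45, Nusap1, Ccnb2 and Ccnd1 were called in WT and not in LC-/-, and E2f2 in LC-/- and not in WT, and the difference between genotypes did not pass for any of these 5. The LC-/- differences were log2 5.14 ± 0.14 SE, adjusted p = 8.60e-12 for Rrm1, log2 3.24 ± 0.23 SE, adjusted p = 6.40e-08 for Cenpa, log2 2.40 ± 0.14 SE, adjusted p = 6.46e-09 for Cdkn1b, log2 -1.48 ± 0.29 SE, adjusted p = 0.000548 for Ccnb1 and log2 -1.14 ± 0.24 SE, adjusted p = 0.000982 for Cenpe. Without DETC library L2, which leaves L3 alone in its group, the members' median difference moved from -0.02 to 0.15. The median of all tested genes was 0.08 in both fits.

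The keratinocyte share of DETC libraries bears on these levels. Multiplied by the mean KC level it amounted to 0.887% of the WT DETC level for Rrm1 and 1.93% for Cenpa, to a median of 8.75% over the 15 replication members and to a median of 23.3% over the 23 mitosis members, with 55.9% for Ccnb1. This amount takes the keratinocyte transcripts of DETC libraries to have the make-up of the KC libraries. Summed levels of 10 basal KC markers were 64101, 57709 and 74465 in DETC W1, W2 and W3, and 399464 to 416528 in WT KCs. Those of 10 markers of KCs above the basal layer were 30032, 63261 and 35306, and 116732 to 174355. The make-up thus varied between libraries. After subtraction of the estimated amount from each DETC value, 15 members were higher and 20 lower in WT DETCs. Of the 14419 tested genes, 4966 were then higher and 6070 lower. Quantile normalization, which makes the distributions of the libraries identical, moved the median of all genes from 0.07 to -0.25 and gave 15 higher and 23 lower members in WT. In that setting 4657 of all tested genes were higher and 6643 lower. Without KC library W1, 10 in place of 16 members were lower in WT DETCs, as were 4742 in place of 5025 of all tested genes.

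Further genes of the same pathways, which were not among the members, split in a similar way by role. Of 59 other replication genes tested, 30 were higher and 5 lower in WT DETCs with a median log2 difference of 0.44, and of 65 other mitosis genes 10 were higher and 35 lower with a median of -0.51, where 40.5% of all tested genes were higher and 34.8% lower. In LC-/- the counts were 29 higher and 6 lower (median 0.34) and 11 higher and 27 lower (median -0.39), where 40.1% of all tested genes were higher and 33.7% lower.

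No member passed the test in LC-/- KCs in the limma fit over the KC libraries. Of 49 members 0 were called, where 7.23% of all tested genes were, while 2 with a positive and 6 with a negative change had an unadjusted p under 0.05. The members' median log2 change was -0.11 against -0.01 over all tested genes. All 10 licensing genes had a positive sign, from 0.03 (Mcm6) to 0.35 (Gins2), and 21 of the 23 mitosis members had a negative sign, with a median of -0.20. The 95% interval of the change lay within -1 and 1 on the log2 scale for 43 of the 49 members.

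Of single members in KCs, Ccna2 came closest, at 290.0, 219 and 239 in WT and 174, 159 and 139.8 in LC-/-. No LC-/- library reached the lowest WT library (log2 -0.65 ± 0.14 SE, adjusted p = 0.0575). Ccna2 overlaps Exosc9 on the opposite strand, which held 119 to 213 reads per library, and the strand setting of the counting is not known. Cdkn1b (log2 -0.43, adjusted p = 0.104), E2f2 (-0.47, adjusted p = 0.162) and Tyms (-0.26, adjusted p = 0.174) also lay below all WT libraries, and Cdkn1a (0.26, adjusted p = 0.149), Cdt1 (0.17, adjusted p = 0.164) and Gins2 (0.35, adjusted p = 0.29) above all of them. That was 4 of 49 members below, against 14.9% of all tested genes, and 3 above, against 16.6%. With recovered reads, edgeR called 3 members lower, Ccna2, Cdkn1b and Nusap1, where it called 12.4% of all genes. DESeq2 called Cdkn1a higher and Ccna2, Ccnb1, Nusap1 and Cdkn1b lower, where it called 15.4% of the genes to which it gave an adjusted p.

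The spread between LC-/- KC libraries was uneven. Relative to the mean of the WT KC libraries, the median log2 ratio over the 23 mitosis members was -0.03 in L1, -0.28 in L2 and -0.35 in L3. The 15 replication members had medians of 0.09, 0.08 and 0.05. Over WT libraries the mitosis members were uneven too, with Ccnb1 at 201, 128 and 215 and Cenpe at 397, 265 and 377 in W1, W2 and W3. The WT library W2 thus lay among the LC-/- values for both genes.

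**Figure D4:**
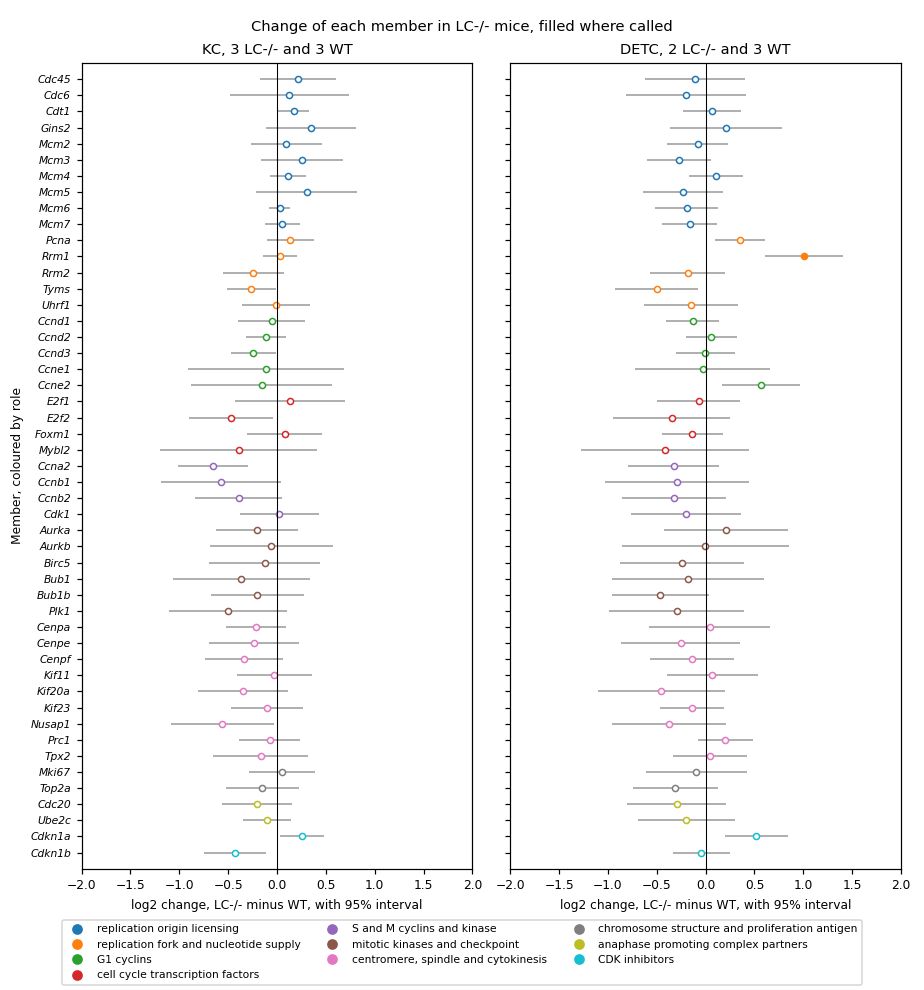
Change of each of the 49 tested members in LC-/- mice (x axis, log2 change of log2(normalized count + 1) against WT, with its 95% interval) in KCs (left) and DETCs (right), coloured by role and filled where the adjusted p was under 0.05. In KCs no member is filled, and in DETCs Rrm1 at 1.01 is the filled point.

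In DETCs, Rrm1 was the member that rose in the absence of LCs. The values given above, 12173, 18306 and 15869 in WT and 29488 and 31994 in LC-/-, did not overlap, and the means were 15449 ± 3088 (SD, n = 3) and 30741 ± 1772 (SD, n = 2), a 2.02-fold difference (log2 1.01 ± 0.17 SE, adjusted p = 0.0275). It was 1 of 49 members called higher by limma, and 0 were called lower by limma, edgeR or DESeq2, where 3.56% of all tested genes were called, and 4 members with a positive and 1 with a negative change had an unadjusted p under 0.05. Without W1, 3 members were called higher, as were 342 of the 14419 tested genes. The call of Rrm1 rested on few libraries: it was lost without W2, W3, L2 or L3. It was also lost when the variance was fitted without a trend and after subtraction of the keratinocyte share, settings that called 0 of all 14419 genes, and over all 17 alternatives the change was between 0.70 and 1.14. DESeq2 called Rrm1 and Cdkn1a, where it called 10.4% of the genes to which it gave an adjusted p.

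Rrm2, the partner of Rrm1, stood at 436, 470.4 and 416 in WT and 320.4 and 469.9 in LC-/- DETCs and did not change detectably (log2 -0.18, 95% interval from -0.57 to 0.20). The genes around Rrm1 did not pass either, with Stim1 at 0.14 (adjusted p = 0.522), Trim21 at -0.12 (adjusted p = 0.714) and Gm45399 at 0.28 (adjusted p = 0.726).

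Pcna (log2 0.36, adjusted p = 0.129), Ccne2 (0.57, adjusted p = 0.122), Cdkn1a (0.52, adjusted p = 0.0859) and Gins2 (0.20, adjusted p = 0.712) were, like Rrm1, above all WT DETC libraries in both LC-/- libraries without passing the test. That made 5 of 49 members above, against 21.3% of all tested genes, and Tyms (-0.50, adjusted p = 0.192) and Mcm7 (-0.16, adjusted p = 0.517) made 2 below, against 16.5%. With L3 as the one LC-/- library, 16 members were above and 4 below all WT libraries, as were 32.0% and 28.8% of all tested genes. The members' median change was -0.14, against 0.02 over all tested genes. The 95% interval lay within -1 and 1 for 45 of 49 members.

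The negative median in DETCs came with library L2. In L2 the median log2 ratio to the WT mean was -0.54 over the 23 mitosis members. In L3 that median was 0.09, with 0 of the 23 below all WT libraries and 8 above. Of all tested genes, 28.8% lay below and 32.0% above all WT libraries in L3. The members' median change was 0.09 without L2 and -0.38 without L3. L2 was also the DETC library with the highest keratinocyte share, and subtraction of the share from the DETC libraries moved the members' median change from -0.14 to -0.28. The summed level of 8 markers of αβ T cells was 10468 to 12527 in WT DETCs, 7782 in L2 and 14992 in L3.

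**Figure D5:**
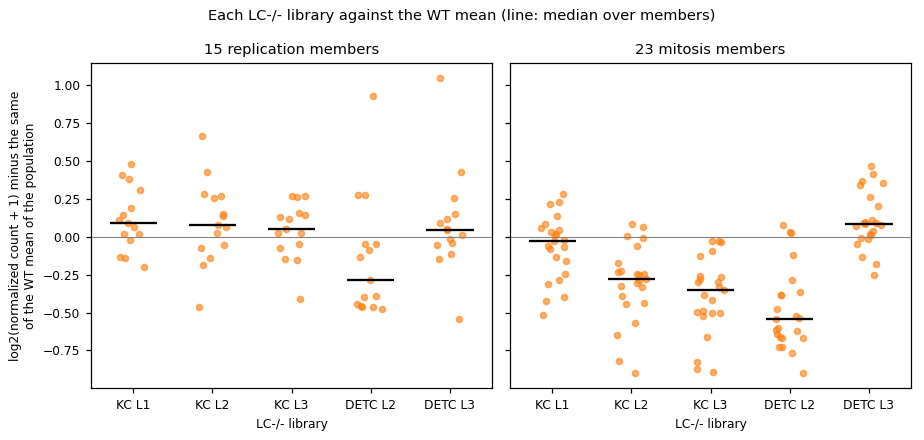
Level of each of the 15 replication members (left) and 23 mitosis members (right) in each LC-/- library against the WT mean of the same population, as a log2 ratio of normalized count + 1, with the median over members as a line. In DETC L2 the medians are -0.28 and -0.54, and in DETC L3 they are 0.05 and 0.09.

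The change in DETCs was tested against the change in KCs in one fit over all libraries. Rrm1 was the single member called, with a change that was more upward in DETCs by 0.98 ± 0.19 on the log2 scale (adjusted p = 0.0319), where 0.798% of all tested genes were called. In KCs its change was 0.03 (95% interval from -0.14 to 0.21). Over 21 alternatives the difference was between 0.82 and 1.11, and the call was lost in 9 of them. For 37 of the 49 members the 95% interval of the difference lay within -1 and 1.

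Further regulators were read from the same fits. Of 39 regulators of G1 and quiescence, Tob1 and Tob2, which restrain proliferation, and Lin54, the DNA-binding subunit of the MuvB complex, rose in LC-/- DETCs by limma, edgeR and DESeq2. These 3 of 39 stand beside 3.56% of all tested genes called by limma, 3.35% by edgeR and 10.4% by DESeq2, which also called Fbxw7 lower. Tob2 stood at 25419, 30396 and 28042 in WT and 47424 and 46299.8 in LC-/- (log2 0.75 ± 0.13 SE, adjusted p = 0.0282), and the change differed from that in KCs (0.73, adjusted p = 0.0319). Tob1 rose by 0.56 (adjusted p = 0.0333) and also differed from KCs (0.86, adjusted p = 0.0142), and Lin54 rose by 0.45 (adjusted p = 0.0449). None of the 3 calls held without L2, where the change was 0.73 for Tob2 (adjusted p = 0.186), 0.59 for Tob1 (adjusted p = 0.13) and 0.40 for Lin54 (adjusted p = 0.25), or without W2, W3 or L3, without a variance trend, with quantile normalization or after subtraction of the keratinocyte share. Without L2 the difference from KCs was 0.71 for Tob2 (adjusted p = 0.125) and 0.90 for Tob1 (adjusted p = 0.0516). In KCs, Btg3, an antiproliferative gene of the Tob family, rose by 0.31 (adjusted p = 0.0272), and Cdc25a, the phosphatase that activates cyclin-dependent kinases, changed by -0.42 (adjusted p = 0.0381) and Cables1 by -0.44 (adjusted p = 0.028). These 3 of 39 stand beside 7.23% of all tested genes, and each call was lost when KC W1, W2, W3, L1 or L3 was left out. Limma then called 5 to 16 of all tested genes, and 224 without W3. Both edgeR and DESeq2 also called Tob1 and Rbl2 lower in KCs, where they called 12.4% and 15.4% of all genes.

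Of 26 tested genes of the p53 pathway, 4 rose and 0 fell in LC-/- KCs by limma, with 3 lower at an unadjusted p under 0.05, while edgeR called 6 higher and 3 lower and DESeq2 7 higher and 3 lower, beside 7.23%, 12.4% and 15.4% of all genes. Mdm2, the ubiquitin ligase that limits p53, stood at 2129 to 2195 in WT and 3386 to 4204 in LC-/- KCs (log2 0.81 ± 0.08 SE, adjusted p = 0.0193). Fas, a death receptor, rose by 0.68 (adjusted p = 0.0251), Aen, an apoptotic nuclease, by 0.61 (adjusted p = 0.0251) and Sesn2, a stress-induced sestrin, by 0.37 (adjusted p = 0.0329). Each of these 4 calls was lost when KC W1, W2, W3, L1 or L3 was left out. Limma then called 5 to 16 of all tested genes, and 224 without W3. Both edgeR and DESeq2 called all 4 genes. In LC-/- DETCs limma and edgeR called 0 genes of the list, with 5 positive and 2 negative changes that had an unadjusted p under 0.05 in limma, and DESeq2 called Cdkn1a, Mdm2 and Sesn2 higher. Cdkn1a, the member that belongs to this pathway, was not called by limma or edgeR in either population, at 0.26 in KCs and 0.52 in DETCs by limma, and was called higher by DESeq2 in both. Of 59 other replication genes, Dbf4, the activator of the kinase that fires origins (0.43, adjusted p = 0.0449), and Atad2, a chromatin ATPase (0.48, adjusted p = 0.0392), rose in LC-/- DETCs by limma and DESeq2 but were not called by edgeR, or by limma without L2 (adjusted p = 0.146 and 0.0978). In KCs limma called 0 of these genes (7 had an unadjusted p under 0.05, of which 2 were positive and 5 negative), and edgeR and DESeq2 each called 3 lower. Of 65 other mitosis genes limma called 0 in either population. An unadjusted p under 0.05 was seen for 8 of them in KCs, 2 positive and 6 negative, and for 5 in DETCs, 4 positive and 1 negative. DESeq2 called 3 of them lower in KCs and 2 higher in DETCs, and edgeR called 1 lower in KCs and 0 in DETCs.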

How the data were processed

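Poly-A RNA of sorted KCs and DETCs was sequenced as paired 75-base reads from 11 libraries of female mice of 8 weeks, made from 50 ng of RNA with 16 amplification cycles. The authors trimmed reads with cutadapt (quality under 20), aligned them to GRCm38 with hisat2 and counted them per gene with featureCounts. The annotation, the strand setting and tool versions are not given in the sources used here. The deposited values are counts divided by DESeq2 size factors, held here as a normalized signal in 1 table of 52550 genes. Dividing each column by its smallest step gave whole reads for 100% of values within 0.01 reads (largest distance 0.00134), 13491075 to 19750440 per library. Columns of all 11 samples were used, and none was left out. Of the genes, 52403 were named by GENCODE M21.

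Genes with a CPM above 1 in at least 2 libraries (14419) were tested with limma 3.58.1 (R 4.3.3, empirical Bayes with trend) on log2(normalized count + 1), a scale that understates the change of low genes. Genotypes were compared within each population, and the interaction and the populations in a 4-group fit over all 11 libraries, with Benjamini-Hochberg adjustment over all tested genes, so that the members' p-values were adjusted with the rest. A gene was called at an adjusted p under 0.05. Alternatives were edgeR 4.0.16 and DESeq2 1.42.0 on recovered reads, other pseudocounts, filters, scalings and samples, subtraction of the keratinocyte share, and the label number as a replicate block. Labels give the same number to a KC and a DETC library without saying that they come from 1 animal. Deviations from group means of same-numbered libraries correlated by -0.0534 to 0.143 over genes, and not all pairs were over 0.1, so the numbers were not treated as pairs. The fits were tested on simulated data with known fold changes. Transcript matches were found with blastn 2.17.0, and promoter windows were taken from RefSeq.

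The members and all lists were chosen with earlier results of these data known. Every member could be named, and values in every library were given for 14 members listed in the rule, for members called in a genotype comparison, and for the 5 with the largest difference in each direction between WT populations. Genes of the other pathway lists were named where they were called in a genotype comparison. Ccna2, Rrm2 and the neighbours of Rrm1 and Cenpa were added after their values were seen. Supplementary tables of fold changes and p-values made by the authors were not used.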

Additional observations from a re-analysis of the deposited data

Results flagged for a closer look

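The change of Rrm1 in LC-/- mice differed between the populations by a test of the difference itself, with a log2 change that was 0.98 higher in DETCs than in KCs (limma interaction, adjusted p = 0.0319). Both LC-/- DETC libraries were above the 3 WT DETC libraries, and the KC libraries of the genotypes overlapped. The call was lost without KC W1, W2, W3, L1 or L2, without DETC W3, L2 or L3 and without a variance trend. No group held 4 or more libraries, so no single library was tested as an outlier.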

How the results depend on the processing

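Counts of called members in LC-/- KCs depended on the tool. Main counts of 0 higher and 0 lower became 1 higher and 4 lower with DESeq2, 3 lower with edgeR, 3 lower without a filter, 2 lower with a mean of at least 10 and 2 lower in a fit over all 11 libraries, and were 0 to 0 when 1 library was left out, which does not show stability, since limma then called 5 to 16 of all genes without W1, W2, L1 or L3. In LC-/- DETCs the count of 1 higher was 2 with DESeq2, 2 in a fit over all 11 libraries, 0 without a variance trend and 0 after keratinocyte subtraction, and 0 to 3 when 1 library was left out, with 0 to 1 lower. The interaction count of 1 became 0 without a variance trend and 0 to 1 when 1 library was left out. Between populations, leaving out 1 library gave 16 to 19 higher and 10 to 17 lower members in WT, and 13 to 18 higher and 9 to 18 lower in LC-/-. Quantile normalization gave 11 higher and 22 lower members in LC-/-, and changed the split of all called genes from 5844 higher and 5025 lower to 4657 and 6643 in WT, from 5781 and 4866 to 4358 and 6655 in LC-/-, from 452 and 62 to 178 and 85 in DETCs and from 89 and 26 to 70 and 48 for the interaction. Keratinocyte subtraction changed the WT split to 4966 higher and 6070 lower. Over all genes KCs had 1042 calls by limma, 1783 by edgeR and 1757 by DESeq2, and DETCs had 514 by limma and 1094 by DESeq2. No named member changed its direction under any alternative run in a comparison in which it was called. With the label number as a replicate block (correlation 0.0491) the interaction called 1 member, WT populations 19 higher and 16 lower and LC-/- populations 17 higher and 14 lower, and it changed no count of members by more than 1. Of 5 DETC libraries, 2 correlated best with the KC library of their own number among KC libraries of both genotypes. Among those of the same genotype, the own number was highest for W2 (0.067), W3 (0.117), L2 (0.143) and L3 (0.117), but not for W1 (-0.053). Deviations of DETC L2 and L3 from their shared mean are mirror images, so their values are not separate results.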

Other observations

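Immediate early genes, which respond to handling and stimulation within minutes, stood at a summed level of 416275 to 497148 in KCs, 329181 to 390460 in WT DETCs, 407302 in DETC L2 and 463851 in DETC L3. Of 14 such genes 13 had a positive log2 change in LC-/- DETCs (median 0.32, 2 called higher by limma, and 0 without L2, where 4 positive changes had an unadjusted p under 0.05), and 7 had one in LC-/- KCs (median 0.00, 0 called by limma, with 3 positive and 2 negative changes that had an unadjusted p under 0.05). Among all tested genes limma called 7.23% in LC-/- KCs and 3.56% in LC-/- DETCs. Of 10 tested LC markers, 3 were lower in LC-/- KCs (median log2 change -0.83) and 4 in LC-/- DETCs (median -1.05), where 1 was higher. Without L2, 2 were lower and 0 higher in LC-/- DETCs by limma, with a median of -0.98 and 1 positive change at an unadjusted p under 0.05.

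Markers of other cells that a sort of epidermis can hold were also read. The summed level of 8 melanocyte markers was 294 to 473 in KCs and 452 to 765 in DETCs. Of the 3 that were tested, 1 was higher and 2 were lower in WT DETCs, where 40.5% and 34.8% of all tested genes were. Their median log2 difference was -1.25, against the direction of the sum. That of 8 mast cell markers was 6.15 to 16.8 in KCs and 318 to 598 in DETCs. Cpa3, Mcpt4, Tpsb2, Ms4a2 and Fcer1a among these were at 0 in every library, so the remaining genes made up the sum. The summed level of 6 fibroblast markers was 69.7 to 158 in KCs and 18.4 to 50.3 in DETCs. The summed level of 12 markers of the growing hair follicle was 5719 to 6980.3 in KCs and 2985 to 3857 in DETCs. Of the 6 that were tested, 1 was higher and 4 were lower in WT DETCs, where 40.5% and 34.8% of all tested genes were.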
